A study of Mus musculus with 15 samples.

Results

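The cytosolic ribosomal protein genes described here are those whose symbol in the array's annotation starts with Rpl or Rps followed by a number, plus Rplp0, Rplp1, Rplp2 and Rpsa. Pseudogenes, the Rps6k kinases and Rps19bp1 were left out. The rule found 47 genes among 19500 measured genes, 20 named for the small subunit and 27 for the large subunit. Of these, 39 are named directly for a subunit protein, 6 are paralogs with their own symbol (Rpl3l, Rpl7l1, Rpl10l, Rpl39l, Rps4l and Rps27l), and Rpl32l and Rps23rg1 are further related genes. The rule uses symbols and no measured value, though it was chosen with earlier results of these data known. The probe set that stands for each gene was the one with the highest mean signal. Another 5 ribosomal protein symbols (Rpl13a, Rpl15, Rpl31, Rpl35 and Rps23) lay only on probe sets with several symbols and were not analysed.

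RNA came from the cerebella of Tg(Pcp2-L10a-Egfp) mice. In these animals the Purkinje cell promoter Pcp2 drives a green fluorescent protein fused to the ribosomal protein L10a. Tagged polysomes were pulled out of pooled cerebella with antibodies to the fluorescent protein, a method called translating ribosome affinity purification, and the bound RNA was hybridised to Affymetrix arrays. All 15 arrays carry the same transgene, and age is the only difference that the labels give, with 3 arrays each at postnatal days P0, P7, P15, P21 and P56. Sex and strain background were not given in the sources used here, and neither was the number of mice in a pool. Values are deposited log2 signals, on which a difference of 1 is a factor of 2. P-values measure the spread between these arrays, since the labels do not say that replicates came from separate litters or days.

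Each cytosolic ribosome is built from a small subunit, which reads the messenger RNA, and a large subunit, which joins the amino acids. Growing cells make the subunit proteins in matched amounts, and most of their messenger RNAs begin with a run of pyrimidines, the terminal oligopyrimidine motif, through which the mTOR pathway controls their translation. Purkinje cells, which carry the output of the cerebellar cortex, enlarge and build their dendrites in the weeks after birth.

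Sequence around the start sites was searched for runs of pyrimidines. A promoter entry in RefSeq (build GRCm38.p6) was found for 39 of the 47 genes, each 250 bases before to 50 bases after the annotated start, and the start farthest upstream was used where a gene had several. The features counted were settled after member windows had been looked at. An unbroken run of at least 8 C or T on the gene's strand, within 50 bases on either side of the start, was present in 27 of the 39 (69.2%), against 34.3% of 15302 measured genes with an entry. This count takes a run anywhere in those bases and is no count of terminal oligopyrimidine motifs, which begin at the first base of the messenger RNA. The motif CCGGAAG, searched on both strands of the whole window, was present in 13 (33.3%, against 12.5%). AAGATGG was present in 3 (7.69%, against 6.38%) and TATAAA in 6 (15.4%, against 12.1%), both searched in the same way. A C or T run can overlap CTTCCGG, the reverse complement of CCGGAAG, but that motif holds too short a run to be counted by itself. A match is a run of letters, not a known binding site. The windows below run from 40 bases before to 20 bases after the annotated start, 5′ to 3′ on the gene's strand, with the longest run of C or T in capitals. Rps12, Rps21 and Rps9 are shown because their signal was higher at P56 than at P0, and Rps10, Rplp0 and Rpl36a because theirs was lower; they were picked after these values were seen.
Rps12, chr10:23787190-23787249, minus strand: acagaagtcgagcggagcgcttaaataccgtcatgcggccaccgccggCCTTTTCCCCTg
Rps21, chr2:180257339-180257398, plus strand: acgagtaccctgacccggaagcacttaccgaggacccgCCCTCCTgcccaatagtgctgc
Rps9, chr7:3704001-3704060, plus strand: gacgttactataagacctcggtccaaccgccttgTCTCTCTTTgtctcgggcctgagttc
Rps10, chr17:27635225-27635284, minus strand: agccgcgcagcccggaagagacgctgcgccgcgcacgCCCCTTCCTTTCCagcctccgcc
Rplp0, chr5:115559427-115559486, plus strand: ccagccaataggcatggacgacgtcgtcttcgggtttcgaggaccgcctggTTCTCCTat
Rpl36a, chrX:134585614-134585673, plus strand: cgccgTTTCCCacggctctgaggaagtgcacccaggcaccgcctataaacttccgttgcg

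Long runs stood in windows of genes that moved in opposite directions. Rps10 held a run of 13 across its start, Rps12 one of 11 and Rps9 one of 9. Rplp0 had no run longer than 7 within 50 bases of its start, and the run of 13 near the start of Rpl36a lay outside the bases shown. Among the 27 genes with a run, 14 were called higher and 5 lower at P56 than at P0. Among the 12 without one, 5 were called higher and 5 lower, and the difference between these groups was not tested. No window was found for Rps29 and Rps20.

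A gene was called where the adjusted p fell under 0.05 in limma's test on all 15 arrays, with Benjamini-Hochberg adjustment over all 22092 probe sets. Over all 5 ages 45 of the 47 ribosomal protein genes differed between some ages (95.7%, against 81.1% of all genes). The exceptions were Rps15, whose tail reaches towards the decoding site, and Rpl39l, a paralog known from testis. Rps15 means ranged from 12.82 at P21 to 13.01 at P0 on its brightest probe set. Its other 2 probe sets were called higher at P56 than at P21, by 0.24 and 0.33. Averaging the probe sets of each gene gave 46 genes that differed. Rpl39l stayed below the lower quartile of all probe sets on every array. The mean log2 signal over the 47 genes was 10.37 ± 0.03 at P0 (SD, n = 3 arrays), 10.53 ± 0.05 at P7, 10.27 ± 0.09 at P15, 10.16 ± 0.02 at P21 and 10.58 ± 0.05 at P56. The family's mean therefore went up to P7, down to P21 and up again to P56, by less than 0.5 in each step. Single genes departed far from that mean.

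Arrays of one age correlated at 0.994 to 0.999. The array medians fell from 7.91 to 7.93 at P0 to between 7.59 and 7.60 at P56, so a second reading with each array's median set to 0 is given beside the counts of each comparison. With that scaling the median change of all genes from P0 to P56 was 0.41 in place of 0.09. The Purkinje markers checked the tissue: 16 measured markers averaged 9.66 at P0, 12.43 at P7 and 12.62 at P56. Markers of other cells were also present, in both directions of change. The 10 endothelial markers averaged 9.08 at P0 and 7.08 at P7, the 10 meningeal markers 9.54 and 7.85, and the 10 microglial markers 8.14 and 6.71. The 10 astrocyte markers averaged 10.37 and 9.79. The 10 granule cell markers went the other way, from 8.66 to 10.51, and the 9 measured oligodendrocyte markers from 8.11 to 9.61. In pooled RNA, fewer cells of a type and less RNA per cell cannot be told apart, nor can a change in mRNA amount be told from a change in ribosome loading, since no unpurified RNA was used here.

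**Figure D1:**
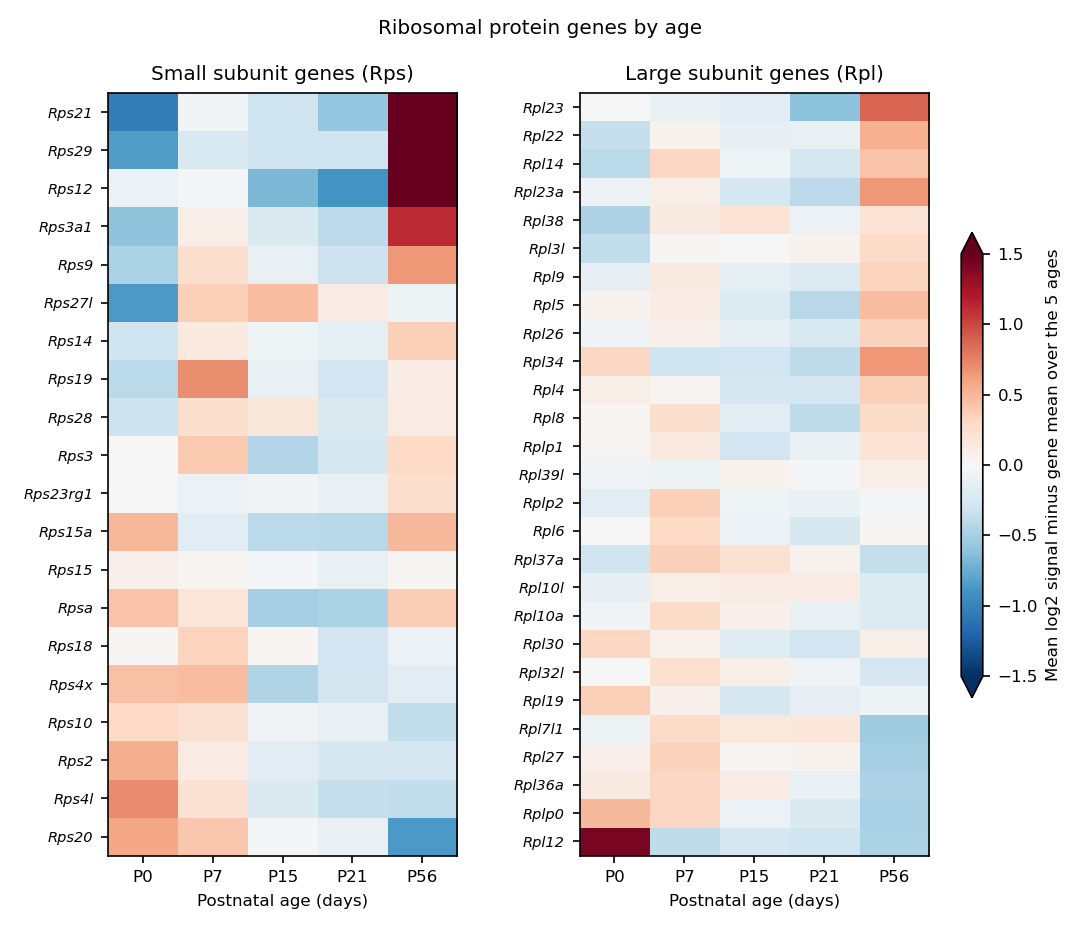
Mean log2 signal of each ribosomal protein gene at the 5 ages (columns), minus the gene's own mean over the ages, for small subunit genes (left) and large subunit genes (right), ordered by the change from P0 to P56. Colours saturate beyond 1.5 in either direction. Many rows are blue at P15 and P21 and red at P56, Rps21, Rps29 and Rps12 reach the darkest red at P56, and Rpl12 is dark red at P0 alone.

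From P0 to P56 the family split. Of the 47 genes, 23 rose (48.9%, against 40.5% of all genes), 13 fell (27.7%, against 34.7%) and 11 were not called, with a median log2 change of 0.16 beside 0.09 for all genes. These shares lie near those of the array as a whole. With array medians set to 0 the split was 33 higher and 9 lower, with 62.5% of all genes then higher and 25.8% lower. The genes that rose by at least 1 were 5 small subunit genes, Rps21, Rps29, Rps12, Rps3a1 and Rps9 (10.6% of the family, against 10.9% of all genes). Those that fell by at least 1 were Rpl12, Rps20 and Rps4l (6.38%, against 15.7%).

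Rps21 (probe set 10479362), a small protein on the solvent side of the small subunit, gave 8.99, 9.23 and 9.07 on the P0 arrays. At P7 it gave 10.24, 10.07 and 9.97, and at P21 9.56, 9.67 and 9.46. The P56 arrays read 12.19, 12.11 and 12.00. Every P56 array was above every earlier array. Its rise from P0 to P56 was 3.00 (SE 0.08, limma adjusted p = 2.45e-15).

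Rps29 (probe set 10400635), a zinc-binding protein of the small subunit that is mutated in some patients with Diamond-Blackfan anaemia, gave 10.89, 10.85 and 10.86 at P0. It stayed between 11.33 and 11.55 from P7 to P21. At P56 the arrays read 13.39, 13.41 and 13.31. The levels formed separate bands at P0 and P56 with a plateau between them, and the rise over the whole period was 2.50 (SE 0.06, limma adjusted p = 5.98e-16). Its other 3 probe sets rose by 2.57 to 2.95.

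Rps12 (probe set 10606567), part of the beak of the small subunit, took a different course. It gave 10.51, 10.58 and 10.50 at P0 and 9.79, 9.70 and 9.68 at P21. At P56 it reached 12.44, 12.33 and 12.17. The P21 arrays were thus below and the P56 arrays above all P0 arrays, with a rise of 1.78 from P0 to P56 (SE 0.09, limma adjusted p = 6.48e-12). Rps12 has 14 probe sets, 8 of which held a value identical to that of another on every array, and all 14 rose from P21 to P56, by 2.28 to 2.72.

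Rps3a1, which lies near the exit of the messenger RNA channel, gave 8.30, 7.91 and 7.78 at P0 and 9.76, 9.75 and 9.66 at P56, a rise of 1.73. Rps9, a protein of the small subunit's body that affects decoding fidelity, rose from 10.19 ± 0.11 to 11.30 ± 0.20, by 1.12. The next in size was a large subunit gene: Rpl23, on the face of the large subunit that meets the small one, rose by 0.89 (SE 0.09). Rpl22 and Rpl14, both of the large subunit, rose by 0.88 and 0.84.

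Among the falls, Rps20 (probe set 10511325), in the head of the small subunit, gave 12.69, 12.63 and 12.59 at P0. It gave 12.10, 12.08 and 11.94 at P15 and 11.38, 11.08 and 11.11 at P56. Its means declined at every step, and the arrays of P0, P15 and P56 did not overlap. From P0 to P56 it fell by 1.45 (SE 0.08, limma adjusted p = 1.69e-11).

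Rplp0, which anchors the stalk that recruits translation factors, gave 12.79, 12.82 and 12.85 at P0 and 11.98, 11.82 and 11.76 at P56. Its change was -0.97 (SE 0.07, limma adjusted p = 4.84e-10), and its second probe set read -1.05. Rps2, at the entry of the messenger RNA channel, changed by -0.79, and Rps10, the other measured beak protein, by -0.66. Both X-linked members that were measured fell as well, Rps4x by 0.61 and Rpl36a by 0.59.

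**Figure D2:**
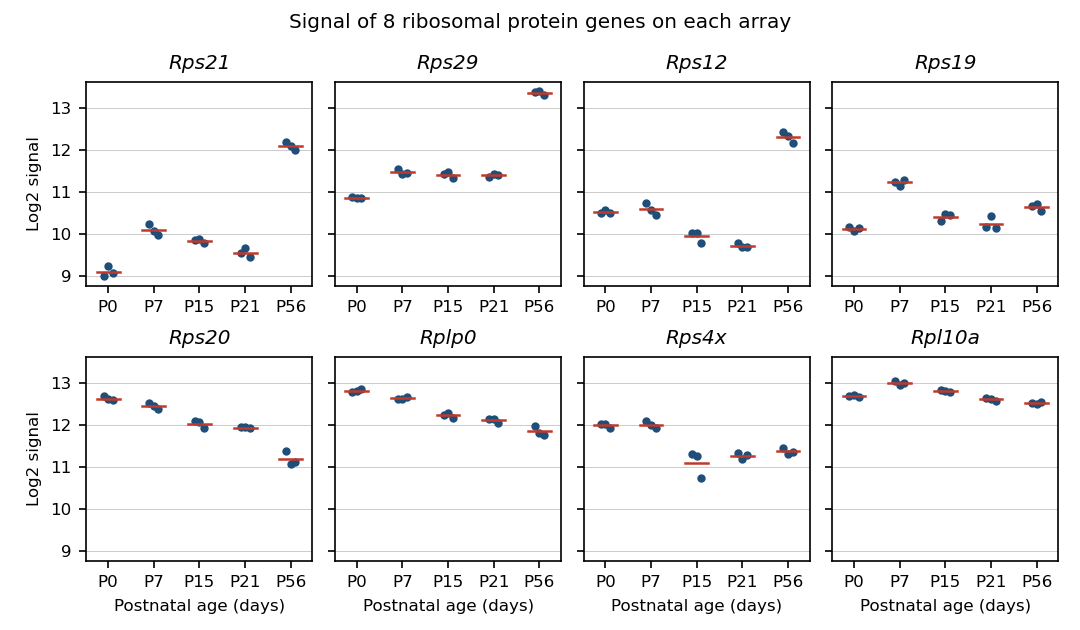
Log2 signal of 8 ribosomal protein genes on every array (points) by age, with the mean of the 3 arrays as a bar, on a shared vertical axis. Rps21, Rps29 and Rps12 are highest at P56, Rps19 peaks at P7, Rps20 and Rplp0 decline, Rps4x drops between P7 and P15, and Rpl10a stays between 12.51 and 13.06; the genes were chosen after their values were seen.

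The stalk proteins did not move together. Rplp1 and Rplp2 pair up along the stalk, and Rpl12 sits at its base. From P0 to P56 Rplp0 and Rpl12 fell, while Rplp1 changed by 0.16 on its brightest probe set (limma adjusted p = 0.0697) and Rplp2 by 0.15 (limma adjusted p = 0.285). The other probe set of Rplp1 was called higher, by 0.78. With array medians set to 0 Rplp1 and Rplp2 were called higher, by 0.49 and 0.47. Rpl12 gave 7.68, 7.85 and 7.65 at P0 and 5.78, 6.09 and 5.90 at P7. Its P56 arrays read 5.83, 5.93 and 5.73, all below the lower quartile of all probe sets. It fell by 1.80 in the first week, the only fall of at least 1 among the 47 genes in that week (2.13%, against 8.69% of all genes). Its dim level limits what can be read from the later ages.

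Rpl10a, the gene of the protein that carries the tag, averaged 12.69 at P0, 13.01 at P7, 12.81 at P15, 12.62 at P21 and 12.54 at P56. Arrays of P7 were above those of every other age. The change from P0 to P56 was -0.15 (limma adjusted p = 0.0226) and turned to 0.17 with array medians set to 0. Leaving out P0 replicate 1, P0 replicate 2 or P56 replicate 2 ended the call. Whether this probe set also reads RNA of the transgene was not tested, so RNA of the gene and RNA of the transgene were not told apart here.

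In the first week, P7 against P0, 23 genes rose (48.9%, against 34.2% of all genes), 8 fell (17%, against 27.4%) and 16 were not called, with a median change of 0.21 beside 0.06. Quantile normalization gave 17 higher (36.2%, against 34.3% of all genes under that scaling) and 12 lower (25.5%, against 28.6%), with a median of 0.038, so these shares were then close to those of all genes. Array medians set to 0 gave 26 higher (55.3%, against 39.1%) and 5 lower (10.6%, against 25%). The largest rise was that of Rps27l, a paralog of Rps27 that p53 induces, from 9.23 ± 0.11 (SD, n = 3) to 10.46 ± 0.10. Rps19, the small subunit protein most often mutated in Diamond-Blackfan anaemia, followed. Rps19 gave 10.17, 10.07 and 10.14 at P0 and 11.24, 11.16 and 11.30 at P7, above every array of the later ages. The rise was 1.11 (SE 0.08, limma adjusted p = 1.59e-09). Rps21 rose by 1.00, Rpl14 by 0.72, Rps9 by 0.71 and Rps3a1 by 0.69.

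After Rpl12, the falls of the first week were led by Rps15a, at -0.66, and Rpl34, at -0.61. Rps15a gave 10.00, 10.14 and 9.98 at P0 and 9.51, 9.32 and 9.31 at P7. Rps4l changed by -0.50, Rps2 by -0.43, and Rpsa and Rpl30 both by -0.25, and Rplp0 by -0.18. Leaving out P0 replicate 1 or 2 or P7 replicate 2 or 3 ended the call of Rpsa, and leaving out P0 replicate 2 or 3 or P7 replicate 1 or 2 that of Rplp0. For Rpsa, the protein once described as a laminin receptor, the direction depended on the probe set, as given below. Over the same step 15 of the 16 Purkinje markers rose and 1 fell, while all 10 endothelial and all 10 meningeal markers fell. Of the 10 granule cell markers 7 rose and 1 fell, of the 9 oligodendrocyte markers 7 rose and 2 fell, and of the 10 astrocyte markers 2 rose and 7 fell. The part of these cell type shifts in the ribosomal protein values was not tested.

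In the second week, P15 against P7, no ribosomal protein gene rose and 26 of 47 fell (55.3%, against 13.8% of all genes; 10.5% of all genes rose). The median change was -0.28 beside 0.01 for all genes. No gene was higher at an unadjusted p under 0.05 either, 31 were lower at that level, and all other fits and scalings tried also gave 0 higher. The falls covered both subunits, 12 of 20 small subunit genes and 14 of 27 large subunit genes. Array medians set to 0 left 20 falls (42.6%, against 9.97% of all genes), and leaving out P15 replicate 3 or P7 replicate 1 also gave 20.

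Rps4x, the X-linked gene of a small subunit protein, fell most in that week. It gave 12.09, 12.01 and 11.94 at P7 and 11.31, 11.26 and 10.75 at P15. The third P15 array lay lowest, and all P15 arrays lay below all P7 arrays. The change was -0.91 (SE 0.11, limma adjusted p = 1.66e-05). Rps3, at the entry of the messenger RNA channel, gave 11.43, 11.44 and 11.34 at P7 and 10.68, 10.75 and 10.29 at P15, with a change of -0.83. Here too the third P15 array was lowest. That array had the lowest mean over the 47 genes at P15, 10.16, where the other two had 10.32 and 10.31.

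Rps19 came next, at -0.81, returning from its P7 peak to 10.42 ± 0.09 (SD, n = 3). Rpsa changed by -0.67, Rps12 by -0.64 and Rplp1 by -0.43. The fall of Rplp2, -0.42, was no longer called without P15 replicate 3, where it was -0.23. Proliferation markers moved in the same step: 8 of the 9 measured fell, and their mean went from 9.07 at P7 to 7.57 at P15. Their part in the ribosomal protein falls was not tested.

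In the third week, P21 against P15, no ribosomal protein gene rose and 8 fell (17%, against 6.93% of all genes; 10.5% of all genes rose). At an unadjusted p under 0.05, 1 was higher and 12 were lower. The median change was -0.09 beside 0.01. Array medians set to 0 gave 10 falls (21.3%, against 9.83% of all genes) and again 0 rises. The largest fall was that of Rpl23, from 8.55, 8.51 and 8.62 at P15 to 8.28, 8.15 and 7.91 at P21, a change of -0.45 (SE 0.09, limma adjusted p = 0.00184). Rps28, a small protein at the messenger RNA exit, changed by -0.38, Rps18 by -0.32, and Rpl38, which in mice affects the patterning of the skeleton, by -0.29. Rps21 changed by -0.28 and Rpl36a by -0.23. The remaining calls were Rpl5, at -0.22, and Rpl10a, at -0.19. The count is fragile: 3 falls were called without P15 replicate 1, and 4 without P15 replicate 2 or without P21 replicate 3. Rplp1 was called higher with a trended, robust prior, and also without P21 replicate 1.

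From P21 to P56 the pattern turned. Of the 47 genes, 28 rose (59.6%, against 21.1% of all genes), 8 fell (17%, against 35.1%) and 11 were not called, with a median change of 0.31 beside -0.03. With array medians set to 0 there were 35 rises and 3 falls, with 49.3% of all genes higher and 23% lower. A rise of at least 1 was called for 7 genes (14.9%, against 1.23% of all genes).

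Those 7 were Rps12 at 2.59, Rps21 at 2.54, Rps29 at 1.96, Rps3a1 at 1.52, Rpl23 at 1.49, Rpl23a at 1.05 and Rpl34 at 1.03. Rpl23, which had fallen in the third week, gave 8.28, 8.15 and 7.91 at P21 and 9.73, 9.49 and 9.58 at P56. Its P56 arrays were above all arrays of the other ages (limma adjusted p = 3.41e-10). Rpl23a, at the mouth of the exit tunnel where signal recognition and targeting factors dock, rose from 11.27 ± 0.14 (SD, n = 3) to 12.32 ± 0.07. Rpl34 rose from 9.48 ± 0.10 to 10.51 ± 0.15.

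Rps20 fell most from P21 to P56, at -0.75 (SE 0.08). Rpl7l1, a paralog of Rpl7, changed by -0.71, Rpl37a by -0.43, Rpl36a by -0.36 and Rpl10l by -0.33. Rpl27 changed by -0.56 on its brightest probe set, while its other 3 probe sets were called higher, by 0.82 to 1.44. Rplp0, at -0.27, and Rps10, at -0.25, completed the 8. With array medians set to 0 the falls of Rpl36a, Rpl37a, Rpl10l, Rplp0 and Rps10 were no longer called. The P21 and P56 arrays of Rpl37a overlapped. In this step 8 of the 9 measured oligodendrocyte markers fell, from a mean of 10.39 to 9.21, and 9 of the 16 Purkinje markers rose. Their part in the ribosomal protein values was not tested.

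**Figure D3:**
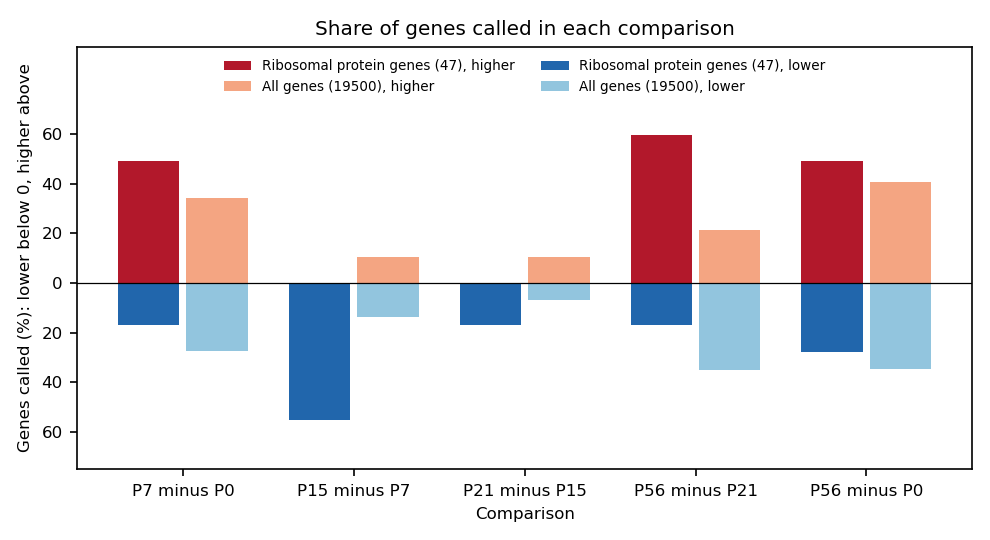
Percentage of the 47 ribosomal protein genes (dark bars) and of all 19500 genes (light bars) called higher (above 0) or lower (below 0) in each comparison. The largest gaps are the falls from P7 to P15, 55.3% against 13.8%, and the rises from P21 to P56, 59.6% against 21.1%.

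The steps P7 to P15 and P21 to P56 share no arrays. A fall in the first and a rise in the second were both called for 17 genes (36.2%, against 1.93% of all genes), a combination chosen after the values were seen. That number follows largely from the separate counts: 65.4% of the 26 genes that fell later rose, beside 59.6% of all 47. Across the 47 genes the sizes of the changes were only weakly related, with a Spearman correlation of -0.15 for this pair of steps. The other pairs of steps without shared arrays gave -0.31 (P7 minus P0 with P21 minus P15) and 0.12 (P7 minus P0 with P56 minus P21). The points of these correlations come from the same arrays, so they are a description. The mean signal was highest at P56 for 21 genes, at P7 for 13, at P0 for 11, at P15 for Rps27l alone and at P21 for Rpl10l alone. Of all genes, 32.2% were highest at P56, 11.5% at P7 and 29.6% at P0.

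Between P7 and P56, both after the large shift in Purkinje markers, 17 genes rose (36.2%, against 24.6% of all genes), 18 fell (38.3%, against 34.9%) and 12 were not called. Array medians set to 0 gave 25 rises (53.2%, against 55.1% of all genes under that scaling) and 11 falls (23.4%, against 22.4%), shares close to those of all genes. The largest rises were those of Rps21 at 2.00, Rps29 at 1.89, Rps12 at 1.73, Rps3a1 at 1.04, Rpl23 at 0.98 and Rpl34 at 0.94. The largest falls were those of Rps20 at -1.27, Rpl7l1 at -0.82, Rplp0 at -0.79, Rpl36a at -0.77 and Rpl37a at -0.72, apart from Rpl27. The brightest probe set of Rpl27 changed by -0.85, while its other 3 were called higher, by 0.51 to 1.13. Rps21, Rps29, Rps12 and Rps3a1 thus stood apart from their P7 as well as their P0 levels.

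Both subunits held rises and falls. From P0 to P56, where 40.5% of all genes rose and 34.7% fell, 11 of 20 small subunit genes rose (55%) and 5 fell (25%), and 12 of 27 large subunit genes rose (44.4%) and 8 fell (29.6%). The shares of the large subunit are close to those of all genes. Median changes were 0.28 and 0.16. Changes ranged from -1.45 to 3.00 in the small subunit and from -1.90 to 0.89 in the large subunit. No test of the difference between subunits was made. Of the 5 measured exit tunnel genes, Rpl4, Rpl22, Rpl23a and Rpl26 rose and Rpl19 fell, by 0.43. The 5 measured genes of the decoding site and messenger RNA path included Rps14, Rps28 and Rps3, which rose from P0 to P56 by 0.65, 0.43 and 0.30, and Rps2, which fell. Of the 8 measured genes linked to Diamond-Blackfan anaemia, an inherited failure of red cell production, 5 rose (62.5%), Rps10 fell, Rpl27 fell on its brightest probe set only and Rps15a was not called. Lists of 5 or 8 genes are too short to read against the shares of all genes.

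The paralogs took separate courses. Rpl3l, the muscle form of Rpl3, and Rpl39l were below the lower quartile of all probe sets on all 15 arrays, so the change of 0.66 called for Rpl3l from P0 to P56 lies between dim values, 5.02 and 5.69. Rps27l rose by 0.80 over the whole period and was highest at P15, 10.56 ± 0.11 (SD, n = 3). Rpl7l1 went from 10.89 at P0 to 11.25 at P7 and 10.43 at P56. Its fall from P0 to P56, at -0.46, was not called with array medians set to 0. Rps4l fell by 1.07 from P0 to P56, and Rpl10l, a retrogene known from testis, was not called, at -0.08. The further related gene Rps23rg1 changed by 0.25 with overlapping arrays, and Rpl32l was not called, at -0.25.

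Ribosomal protein genes have many near-identical copies in the genome, and whether a probe set also reads a copy was not tested. Several probe sets of one gene give a check: 134 probe sets belonged to the 47 genes, 22 of which had more than 1, and the brightest one stands for its gene throughout. From P0 to P56 the probe sets of a gene spanned a median of 0.36. Only Rpl27, a large subunit protein, had calls in both directions in that comparison. Its brightest probe set changed by -0.58 and its other 3 by 0.79, 0.79 and 1.65, with the first pair identical on all arrays. Rpsa is the reverse case of a quiet representative, at -0.06, with 4 other probe sets that rose by 0.77 to 1.14. For Rps2 the representative read -0.79, and the others -1.19 and 0.19. From P7 to P56 Rps2 had calls in both directions, at -0.36 for the representative and 0.79 for another probe set. From P21 to P56 its other 2 were called higher, by 0.38 and 1.29, beside -0.003. The fall of Rps10 in that step was called on 1 of 3 probe sets. The directions of Rpl27 and Rps2, the calls of Rpsa from P0 and that fall of Rps10 therefore hold for the named probe set only. The same holds for Rplp1 from P0 to P56, not called at 0.16 but called at 0.78 on its other probe set. In that comparison Rps4x fell on 4 of 5 probe sets and Rpl19 on 5 of 7. Their representatives showed the largest falls, and other probe sets read as little as -0.05 and -0.02. Further calls can also turn on the probe set. Rps12 and Rps29, in contrast, rose from P0 to P56 on all of theirs. Rps21 and Rps20 have a single probe set each.

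**Figure D4:**
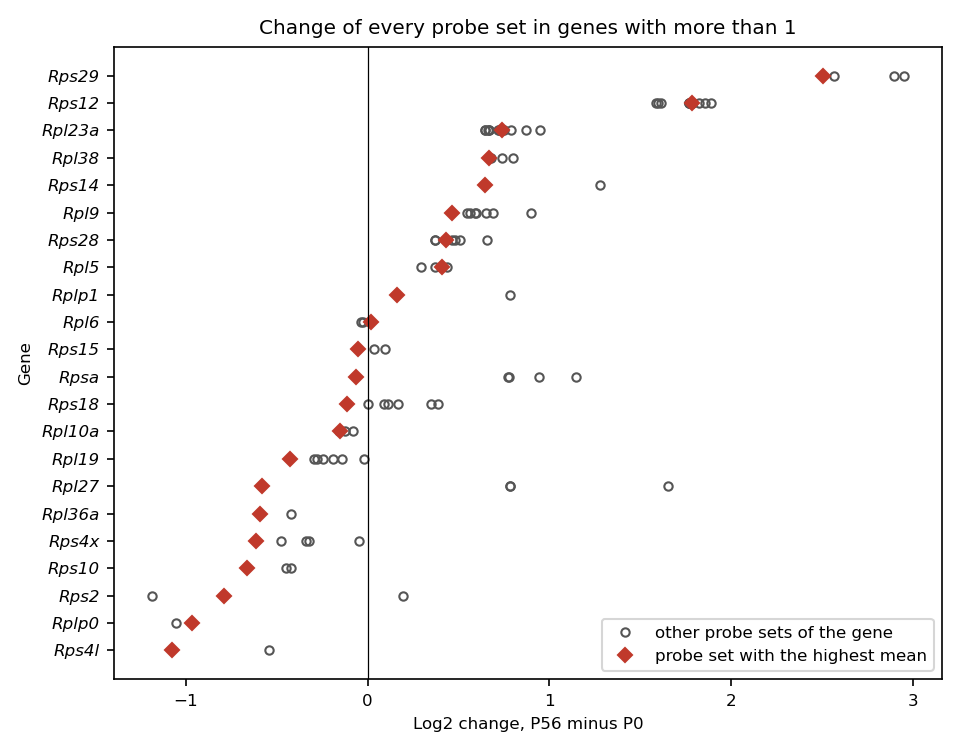
Log2 change from P0 to P56 of every probe set in the 22 ribosomal protein genes with more than 1, with the brightest probe set of each gene as a diamond and the others as circles. The probe sets of a gene span a median of 0.36. Those of Rpl27 lie farthest apart, at -0.58 and at 0.79 to 1.65, followed by those of Rps2 and Rpsa, which span 1.38 and 1.21.

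Fau, whose product carries a small subunit protein behind a ubiquitin-like leader and which the rule does not cover, averaged 12.45 at P0, 12.77 at P7 and 12.20 at P56, a change of -0.25 from P0 to P56. The elongation factors split as well, with 5 of 9 higher (55.6%, against 40.5% of all genes) and 3 lower (33.3%, against 34.7%) at P56 than at P0. Eef1a1, the general carrier of aminoacyl-tRNA, changed by -0.62. Its neuronal and muscle counterpart Eef1a2 rose by 1.26, from 11.71 ± 0.03 (SD, n = 3) to 12.98 ± 0.03. Eef2, the translocation factor, changed by -0.88, and its kinase Eef2k by -1.22, while Eif5a2 rose by 2.19.

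Of 31 initiation factors, 15 rose (48.4%, against 40.5% of all genes) and 13 fell (41.9%, against 34.7%) from P0 to P56, with Eif4e, the cap-binding protein, at 1.56 and Eif3l at -1.71. From P7 to P15, 16 fell (51.6%, against 13.8%) and 2 rose (6.45%, against 10.5%). Of 46 ribosome biogenesis genes, 17 rose and 17 fell from P0 to P56 (37% each, close to the shares of all genes), and 25 fell from P7 to P15 (54.3%, against 13.8%). Ltv1, an assembly factor of the small subunit, rose by 2.46 over the whole period, and Taf1d, part of the promoter factor of RNA polymerase I, changed by -4.33. Of 17 genes of mTOR signalling and Myc control, 3 rose (17.6%, against 40.5%) and 9 fell (52.9%, against 34.7%) from P0 to P56, among them Rheb, the activator of mTOR, at 1.91, Mycn at -1.34 and Myc at -3.23. All of these lists were chosen with earlier results of these data known, and no list was tested against another.

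The mitochondrial ribosome took another course. Of 75 measured Mrpl and Mrps genes, 73 rose from P0 to P7 (97.3%, against 34.2% of all genes), with a median change of 1.32. From P0 to P56, 68 rose (90.7%, against 40.5%) and 3 fell (4%, against 34.7%). Mrps12 rose by 4.23 and Mrpl18 by 3.01 from P0 to P56. From P7 to P15, where 26 of 47 cytosolic genes fell, 11 of the 75 mitochondrial genes fell (14.7%, against 13.8%) and 8 rose (10.7%, against 10.5%). From P21 to P56, 35 rose (46.7%, against 21.1%) and 24 fell (32%, against 35.1%). The difference between these families was not tested.

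**Figure D5:**
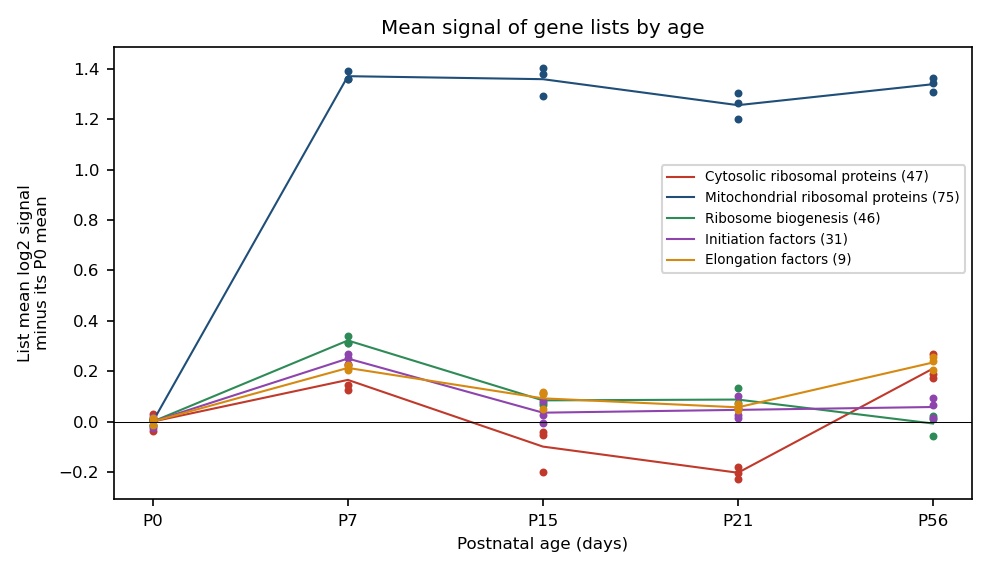
Mean log2 signal of 5 gene lists at each age, minus the list's P0 mean, with a point for each of the 3 arrays of an age and a line through the means. The mitochondrial ribosomal proteins step up between P0 and P7 and stay up, while the cytosolic ribosomal proteins go up at P7, below their P0 level at P15 and P21, and up again at P56.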

How the data were processed

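The authors deposited 1 log2 signal per probe set and array for 15 Affymetrix arrays, made with Affymetrix Power Tools per the submitters' processing notes. For the summary algorithm, its version and the background step nothing was given in the sources used here, and the log base was read from the values, 3.15 to 14.08. Of 22092 probe sets, 20996 carried 1 symbol in the 2016 platform annotation, 91 carried several and 1005 were not listed. A gene was represented by its probe set with the highest mean. A mean per age was fitted to all 15 arrays with limma 3.58.1 in R 4.3.3 (lmFit and eBayes, 10 residual and 6.50 prior degrees of freedom), two-sided, with Benjamini-Hochberg adjustment over all probe sets within a comparison and a threshold of 0.05. In simulated data for P56 minus P0 over 22092 probe sets, 50 probe sets were shifted at each size tried and 21892 were left unshifted. There 16% of shifts of 0.25, 78% of 0.5 and 100% of 1 were called. In the real comparison 40.5% of genes were called higher and 34.7% lower, which makes the adjustment less strict. The simulated shares therefore do not carry over to it.

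Members, lists and tests were chosen with earlier results of these data known. Named were, per comparison, the 6 called genes with the largest rise and the 6 with the largest fall, the stalk genes, Rpl10a, Rpsa, the paralogs and genes of the role lists, and for the lists beside the members up to 4 called genes in each direction, with Eef1a1 and Eef1a2 always named. Alternatives changed the scaling (quantile, or each array median at 0), the weighting of arrays, the prior (trended and robust), the block on replicate number, the probe sets kept or combined, and the genes or arrays left out. Arrays carry no depth; their number, 3 per age, limits precision. Protein lengths were not analysed here.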

Additional observations from a re-analysis of the deposited data

How the results depend on the processing

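Of 2777 values of named genes under the alternatives, 2651 counted as unchanged, 72 lost the call and 41 gained it. Another 13 changed sign with a call in the main or the alternative fit. A sign change without a call in either fit counted as unchanged. The 79 values without the paralogs, and the 79 with only the 39 genes, could not change, since the fit was the same. For genes with 1 probe set, neither could those of the dimmest probe set. With array medians set to 0 the median change of the 47 genes was 0.49 from P0 to P56, 0.54 from P21 to P56 and 0.29 from P7 to P56, and the falls numbered 5 from P0 to P7, 3 from P21 to P56 and 11 from P7 to P56. That scaling also turned Rpl10a to 0.17 (P56 minus P0) and 0.15 (P56 minus P21), Rpsa to 0.26 (P56 minus P0) and Rps4l to 0.21 (P56 minus P21). Quantile normalization gave a median of 0.038 from P0 to P7 and turned Rps4l to 0.25 (P56 minus P21). A trended and robust prior called 1 rise from P15 to P21. The cause of these shifts was not tested. Averaging the probe sets of a gene gave Rpsa 0.71 (P56 minus P0) and 0.17 (P7 minus P0), and Rpl27 0.63 (P56 minus P21) and 0.33 (P56 minus P7). Taking the dimmest probe set, an alternative chosen after seeing the data, gave a median of 0.29 from P0 to P56, Rpsa 1.14 (P56 minus P0) and 0.65 (P7 minus P0), and Rpl27 1.44 (P56 minus P21) and 1.13 (P56 minus P7). Restricting the family to the 39 genes named directly for a subunit protein, also chosen after seeing the data, kept every count of calls within 1.5 times.

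Over all probe sets, same-numbered arrays of different ages had a mean correlation of deviations of 0.00167 (range -0.31 to 0.45). Arrays with different numbers had a mean of -0.00089 (range -0.42 to 0.24). These means cannot exclude an order within the family. Over the 47 genes the mean signal was highest on replicate 1 and lowest on replicate 3 at every age, for example 10.59, 10.51 and 10.49 at P7. What the replicate numbers stand for was not tested. With the replicate number as a block, 23 rises and 14 falls were called from P0 to P56, 25 falls from P7 to P15, 9 falls from P15 to P21, and 28 rises and 9 falls from P21 to P56.

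Leaving out each array in turn gave 21 to 24 rises and 11 to 15 falls from P0 to P56 (median 0.14 to 0.21), 21 to 23 and 6 to 9 from P0 to P7 (median 0.14 to 0.25), and 0 rises with 20 to 27 falls from P7 to P15 (median -0.30 to -0.23). It gave 0 to 1 rises and 3 to 9 falls from P15 to P21 (median -0.15 to -0.08), 26 to 28 and 7 to 10 from P21 to P56 (median 0.27 to 0.35), 15 to 18 and 16 to 19 from P7 to P56 (median -0.02 to 0.03), and 42 to 45 genes that differed between any ages. The planned comparison with protein length was not run. In the simulation, where few probe sets were shifted, 16% of changes of 0.25 were called. The share for the real comparisons, with 3 arrays per age, was not estimated.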
